A study of Mus musculus with 4 samples.

Results

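Axon guidance genes encode the secreted and membrane-bound cues that steer growing axons and the receptors that read them: semaphorins with their plexin and neuropilin receptors, ephrins with their Eph receptors, Slits with their Robo receptors, and netrins with Dcc and the Unc5 receptors. Members were taken by name alone, as the array rows whose gene symbol belongs to one of these families, and not by any measured value. They numbered 71 of the 37294 gene symbols on the array, with 170 of its 56605 probes. Of these symbols 69 are protein-coding members and all 69 were measured, that is, well above background, on all 4 arrays. The remaining 2, Plxna4os1 and Plxna4os2, are antisense transcripts of Plxna4 that match the same name pattern, and neither was well above background on any array.

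In the adult hippocampus these molecules are no longer needed to lay down the main fibre tracts, but many stay expressed in neurons and glia. Ephrins and Eph receptors are membrane proteins on both sides of a cell contact and are known for shaping dendritic spines and synapses. Class 3 semaphorins are secreted and act through neuropilin and plexin complexes, whereas most other semaphorins are anchored in the membrane and bind plexins directly. Slits repel axons through Robo receptors, and netrins attract through Dcc and repel through Unc5 proteins.

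Hippocampal RNA came from wild-type (WT) mice and from mice labelled hetero for Rp58 (hetero-KO), each at 4 and at 18 months of age. Rp58, whose current symbol is Zbtb18, is a zinc finger protein that represses transcription and is required for the development of cortical neurons. Each of the 4 groups was 1 one-colour array of RNA pooled from 3 samples, so the groups hold no replicate array and their number limits the precision. How the knockout allele was made, and the strain and sex of the mice, are not given in the sources used here. The descriptions of the older groups give their age as 12 to 18 months where the age label gives 18.

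Values are levels, the background-corrected signal of a probe divided by the 75th percentile of its array, and log2 differences of these levels. Because probes differ in brightness, a level is compared only with the same probe on another array. A gene with several probes is described by its brightest one unless the text says otherwise. Levels are listed in the order WT at 4 months, hetero-KO at 4 months, WT at 18 months and hetero-KO at 18 months. A pair of arrays allows no test, so members at least 1.5-fold apart are counted beside the same share of all genes. The error that the scanner software gives its spots, combined over a pair of arrays, was 0.20 on the log2 scale at the median of the members and 0.39 at most. A test was possible only for the genotype difference over both ages and for the age difference over both genotypes, with limma and Benjamini-Hochberg adjustment over 29065 genes, and it rests on 1 residual degree of freedom. Its errors and p-values come from how far the genotype and age differences depart from adding up over the 4 pools, moderated over genes. They measure no spread among replicate pools or among mice.

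The 75th percentile of the signal lay between 1714 and 2111 over the 4 arrays, and 77.9% to 81.9% of spots were well above background. Zbtb18 itself had levels of 17.5, 15.2, 18.9 and 21.4, so that the hetero-KO array was lower at 4 months and higher at 18 months; whether its probe lies in the deleted part is not known. Hippocampal markers were present on every array: all 8 CA3 markers, all 10 dentate granule cell markers and all 7 CA1 markers on the array were measured on all 4. The pools also differed in other tissue. Of the striatal markers 16 of 16 were higher in hetero-KO than in WT at 4 months, with summed levels of 27.5, 62.3, 26.5 and 29.2 on the 4 arrays. Choroid plexus markers were lower in hetero-KO at both ages in 15 of 15 cases, with summed levels of 174, 142, 209 and 161. Markers of thalamus and habenula summed to 50.7, 39.8, 22.0 and 20.01. Xist was well above background only on the 4-month arrays and Eif2s3y on all but the hetero-KO array of 4 months, so the pools did not share one makeup of sexes. In pooled tissue, fewer cells of a type and less RNA per cell cannot be told apart.

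Rp58 binds a DNA site with the core letters ACATCTG, and the promoters of the members were searched for these letters. The RefSeq promoter table, in build GRCm38.p6, holds 75 promoters of 59 member symbols, each 300 bases long with 250 bases before the start of the gene. The letters, read on both strands, stood in 2 of the 75, or 2.67%, beside 4.43% of all 32851 promoters in the table. No other promoter of a member held the letters in this window, and a match is a description, not a binding site. The matches are printed with the 7 core letters in capitals, in the direction of the gene, for Efna3 at chr3:89323173-89323189 on the minus strand, where the core is on the opposite strand 250 bases before the start, and for Sema4a at chr3:88459236-88459262 on the minus strand, 151 bases before one of the gene's 4 starts in the table.
Efna3: CAGATGTatgtccaggt
Sema4a: accccttgccACATCTGgggtcctgcc

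Efna3 differed by 0.01 at 4 months and by -0.12 at 18 months (log2, hetero-KO minus WT), and Sema4a by 0.20 and 0.09. Neither gene was called for genotype over both ages (limma adjusted p = 0.738 and 0.430), though Sema4a had an unadjusted limma p of 0.045. The members' promoters were rich in G and C, with a median of 64.4% in the 250 bases before the start against 52.4% over all promoters, and held a median of 15 CG dinucleotides against 6. The promoter of Epha8, the member with the largest difference with age, was 84.0% G and C and held 46 CG dinucleotides. Its 250 bases before the start, at chr4:136956817-136957066 on the minus strand, are shown with each CG in capitals.
Epha8: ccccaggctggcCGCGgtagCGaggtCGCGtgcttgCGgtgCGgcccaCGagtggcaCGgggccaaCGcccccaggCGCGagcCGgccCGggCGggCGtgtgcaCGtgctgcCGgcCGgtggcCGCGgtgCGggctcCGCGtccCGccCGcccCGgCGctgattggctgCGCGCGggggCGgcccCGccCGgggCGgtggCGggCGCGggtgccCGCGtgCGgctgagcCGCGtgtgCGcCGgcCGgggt

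The first question was how these genes differed between hetero-KO and WT at each age. At 4 months none was 1.5-fold higher in hetero-KO and none 1.5-fold lower, where 1.82% of all genes were higher and 2.71% lower by that much. At 18 months 1 member was higher and 3 were lower, beside 2.11% and 2.64% of all genes. The members' median log2 difference was 0.00 at 4 months and 0.02 at 18 months, and that of all genes -0.02 and -0.01. As a base for the counts by family, 44.4% of all genes were higher in hetero-KO by any amount at 4 months, 47.9% at 18 months, and 13076 of 29065 over both ages. The difference exceeded the combined spot error for 22 members, or 31.9%, at 4 months and for 25, or 36.2%, at 18 months, beside 25% and 23.8% of all genes. Its sign was the same at both ages for 38 of 69 members, or 55.1%, beside 61.8% of all genes; these 2 comparisons share no array. Among the members that limma placed outermost over both ages without a call were Robo2 at 0.58 ± 0.27 (SE), Sema3f at -0.45 ± 0.16 and Sema3a at -0.32 ± 0.16. Over both ages limma called no member for genotype, at an adjusted p under 0.05, where it called 0.0103% of all genes higher and 0% lower. Before adjustment, 7 members were higher and 5 lower at p below 0.05, that is 10.1% and 7.25% of the 69, beside 5.15% and 6.3% of all genes.

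**Figure D1:**
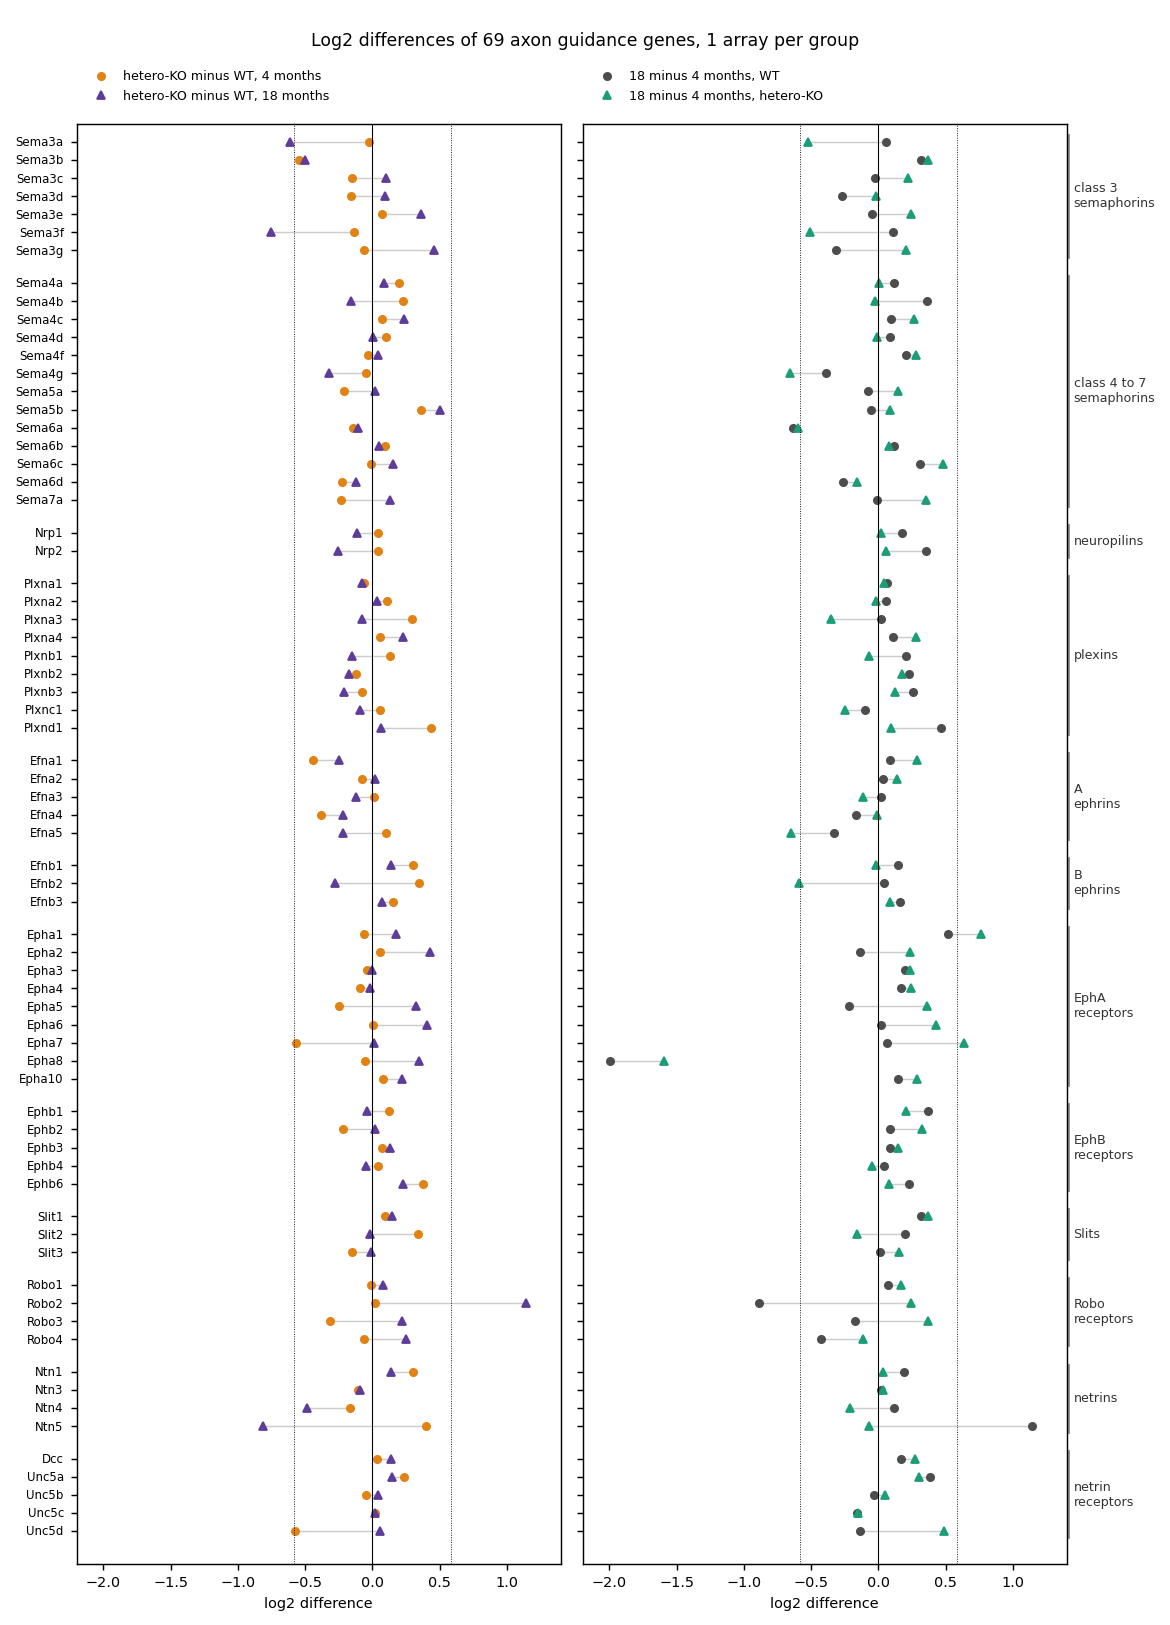
Log2 differences of the 69 measured axon guidance genes, grouped by family. The left panel shows hetero-KO minus WT at 4 months (circles) and 18 months (triangles), the right panel 18 minus 4 months in WT (circles) and hetero-KO (triangles); each point is 1 array minus another, dotted lines mark 1.5-fold, and no group has a replicate. Epha8 lies farthest from 0, at -2.0 and -1.60 in the right panel, and no member passes 1.5-fold at 4 months in the left.

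Class 3 semaphorins, the secreted class, held 2 of the 3 members that were 1.5-fold lower in hetero-KO at 18 months. Sema3b, a ligand of neuropilin 2, was measured by 1 probe at chr9:107500686-107500745 in mm9, and its levels were 1.32, 0.902, 1.65 and 1.16. The hetero-KO array of each age differed from WT of that age by -0.55 at 4 months and -0.50 at 18 months on the log2 scale, and both hetero-KO arrays lay below both WT arrays. The difference over both ages was -0.52 ± 0.05 (SE, 4 arrays), the member with the smallest p for genotype, but its adjusted p was 0.141 (limma, Benjamini-Hochberg), so it did not pass. Choroid plexus markers were lower in the same arrays, by a median of 0.47 at 4 months and 0.80 at 18 months, and their part in the Sema3b value was not tested.

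Sema3f, which signals through neuropilin 2 and repels hippocampal axons, had levels of 0.633, 0.575, 0.683 and 0.404. Its second, dimmer probe read 0.0196, 0.0246, 0.0232 and 0.0174. On both probes the hetero-KO array of 18 months was the lowest of the 4, with differences from WT of -0.76 and -0.41 at that age, while at 4 months the probes gave -0.14 and 0.32. Sema3a, the founding class member, which acts through neuropilin 1, showed levels of 0.135, 0.133, 0.141 and 0.0920. Its 3 probes differed by -0.61, -0.74 and -0.22 at 18 months, and 2 of the 3 were lowest on that hetero-KO array. In the authors' deposited table, whose 18-month values come from no scanner file used here, the corresponding differences were 0.039 for Sema3a, 0.042 for Sema3f and -0.71 for Sema3b.

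The other class 3 members did not share this pattern. Sema3g and Sema3e, the latter a ligand of plexin D1, were higher in hetero-KO at 18 months by 0.46 and 0.36, with 2 of 2 probes higher for each. At 4 months 6 of the 7 class 3 genes were lower in hetero-KO, with a median of -0.14, though 5 of 7 after quantile normalization, and at 18 months 3 of 7 were lower.

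Among the membrane-bound semaphorins of classes 4 to 7, 6 of 13 were higher in hetero-KO at 4 months and 9 of 13 at 18 months, or 7 of 13 after quantile normalization. Sema5b, a transmembrane semaphorin with thrombospondin repeats, had levels of 0.676, 0.869, 0.651 and 0.922. Both hetero-KO arrays were above both WT arrays. The difference was 0.36 at 4 months, 0.50 at 18 months and 0.43 ± 0.07 (SE) over both ages, with an adjusted p of 0.209 (limma). Of its 4 probes 3 were higher at 4 months and 4 at 18 months, with differences between -0.05 and 0.50. Sema4g was lower in hetero-KO by 0.32 at 18 months. At 4 months its brightest probe differed by -0.05 and its dim second probe, with levels of 0.0496, 0.0186, 0.0196 and 0.0200, by -1.41. The dim probe was high on the WT array of 4 months alone, and the brighter one was not.

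The receptors of the semaphorins differed less. Plexin D1 (Plxnd1), the receptor of Sema3e, had levels of 1.32, 1.78, 1.82 and 1.90. Its WT array of 4 months was lower than the other 3, which gave differences of 0.44 at 4 months and 0.06 at 18 months, and its second probe gave 0.17 and 0.06. Striatal markers were higher on the hetero-KO array of 4 months by a median of 1.03, and their part in this value was not tested. The other 8 plexins lay between -0.12 and 0.30 at 4 months, and all 9 between -0.21 and 0.23 at 18 months. By their brightest probes, Nrp1 and Nrp2, the co-receptors of class 3 semaphorins, were within 0.04 of WT at 4 months. At 18 months they were at -0.11 and -0.25. The 3 probes of Nrp2 ranged from -0.53 to 0.04 at 4 months and from -0.25 to 0.11 at 18 months. One dim probe of Nrp1 stood apart, with levels of 0.123, 0.223, 0.132 and 0.126, where the 6 other Nrp1 probes differed by -0.16 to 0.11 at 4 months.

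The A ephrins are held in the membrane by a lipid anchor, and the B ephrins span it. In the fit over both ages all 5 A ephrins were lower in hetero-KO, with a median of -0.06, and all 3 B ephrins higher, with a median of 0.11, but none passed the test and the difference between the classes was not tested. By age, 3 of 5 A ephrins were lower at 4 months and 4 of 5 at 18 months, and 3 of 3 B ephrins were higher at 4 months and 2 of 3 at 18 months. Efna1 had levels of 0.460, 0.338, 0.488 and 0.412 and differed by -0.44 at 4 months, -0.25 at 18 months and -0.34 ± 0.08 (SE) over both ages (limma adjusted p = 0.312). Each hetero-KO array of Efna1 lay below both WT arrays. Efna4, a dim probe with levels of 0.0391, 0.0300, 0.0347 and 0.0298, gave -0.38 and -0.22, and -0.12 at 4 months with normexp background correction. Efnb2, which marks arteries and also acts at synapses, had levels of 0.751, 0.956, 0.772 and 0.636. It was higher in hetero-KO by 0.35 at 4 months and lower by 0.28 at 18 months. Efnb1, on the X chromosome as are Plxna3 and Plxnb3, was higher by 0.30 and 0.14. For every member, X-linked or not, the makeup of sexes of the 4-month pools cannot be told apart from genotype.

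Among the EphA receptors, which bind mainly A ephrins, Epha7 was lower in hetero-KO at 4 months on every probe. Its brightest probe, at chr4:28873570-28873629 in mm9, had levels of 2.49, 1.68, 2.59 and 2.61. The hetero-KO array of 4 months was low and the other 3 lay close together. All 4 probes of Epha7 were lower at 4 months, by 0.42 to 0.56 on the log2 scale, and all 4 lay between -0.06 and 0.14 at 18 months. Over both ages the difference was -0.28 ± 0.14 (SE), which did not pass (limma adjusted p = 0.511). Dentate granule cell markers were lower on the same hetero-KO array in 9 of 10 cases, by a median of 0.34, and at 18 months in 8 of 10, by a median of 0.29. Thalamus and habenula markers were lower in 14 of 16 cases at 4 months and in 5 of 15 at 18 months. For meningeal fibroblast markers these counts were 15 of 15 and 3 of 15, and for endothelial markers 12 of 14 and 5 of 14. The part of these cells in the Epha7 value was not tested.

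Epha5, a receptor of forebrain neurons, had levels of 3.41, 2.87, 2.94 and 3.68, which gave differences of -0.25 at 4 months and 0.32 at 18 months. All 5 of its measured probes were higher in hetero-KO at 18 months, by 0.21 to 0.42, and 4 of 5 were lower at 4 months. Epha6 and Epha2 were higher at 18 months by 0.41 and 0.43. Counted over the family, 7 of 9 EphA receptors were higher in hetero-KO at 18 months, with a median of 0.22, and 8 or 9 of 9 under the other scalings. At 4 months 6 of 9 were lower, but 4 of 9 with normexp. In the EphB receptors, which bind mainly B ephrins, Ephb6, a receptor without kinase activity, had levels of 4.03, 5.23, 4.71 and 5.52. It was higher in hetero-KO by 0.38 and 0.23 and over both ages by 0.30 ± 0.05 (SE; limma adjusted p = 0.245), but its second, dim probe gave -0.05 and -0.08.

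**Figure D2:**
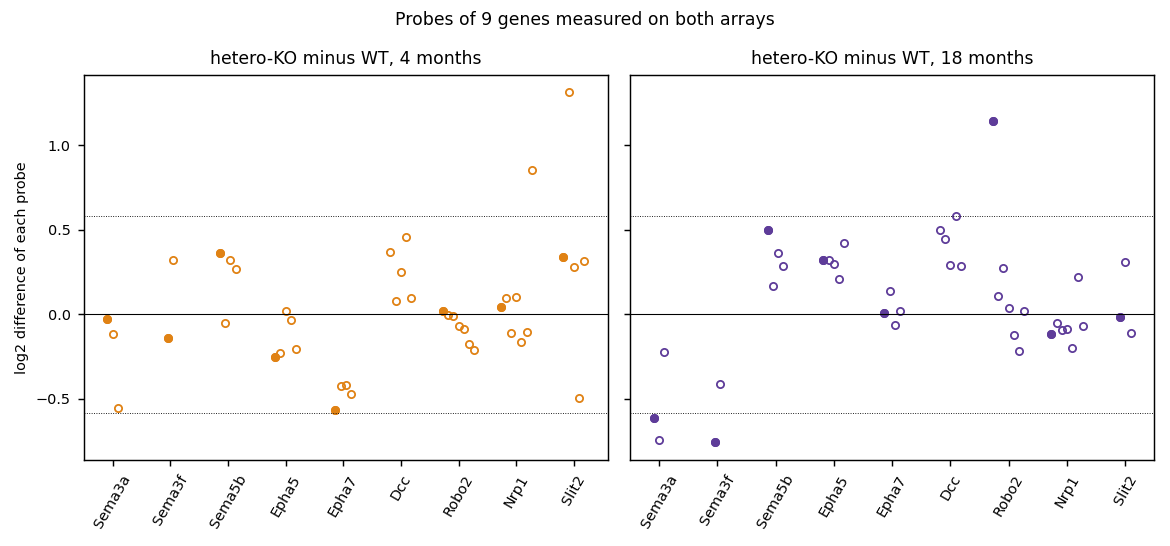
Log2 difference of hetero-KO minus WT for every probe of 9 genes that was measured on both arrays, at 4 months (left) and 18 months (right). Filled points are the brightest probe of each gene, dotted lines mark 1.5-fold, and the Dcc probe placed on another chromosome is left out. All 4 Epha7 probes lie below 0 at 4 months, all 5 Dcc probes above 0 at both ages, and 1 Robo2 probe lies at 1.14 apart from the other 6.

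Robo2, a Slit receptor, gave the largest genotype difference among the 69 members by their brightest probes, and it rested on 1 probe. The probe at chr16:73894653-73894712 in mm9 had levels of 1.39, 1.41, 0.754 and 1.67. Only the WT array of 18 months was low, which set both the 18-month genotype difference of 1.14 and the WT age difference of -0.88. The 6 other measured probes of Robo2 differed by -0.22 to 0.28 at 18 months. In the authors' deposited table the same probe differed by 0.00 at 18 months. By their brightest probes, all 4 Robo genes were higher in hetero-KO at 18 months, with a median of 0.23, under each scaling. Probe by probe, 3 of 5 were higher for Robo1, 5 of 7 for Robo2 and 1 of 2 for Robo3. Robo3 had levels of 3.62, 2.91, 3.21 and 3.75 and differed by -0.31 at 4 months and 0.22 at 18 months, whereas its dimmer probe gave -0.48 and -0.05. Of the Slits, Slit2 had levels of 0.932, 1.18, 1.07 and 1.06 and was higher by 0.34 at 4 months. Of its 5 probes measured on both 4-month arrays 4 were higher, 1 of them dim and by 1.32, and 1 was lower by 0.49. Slit1 and Slit3 differed by -0.15 to 0.14 at either age.

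Netrin 5 (Ntn5), a member of the netrin family, had the widest range of genotype differences among the netrins. Its levels were 0.255, 0.335, 0.562 and 0.320. WT at 18 months was higher than the other 3 arrays, and WT at 4 months the lowest. The genotype difference was 0.40 at 4 months and -0.81 at 18 months, and the second probe followed, at 0.41 and -0.68. In the authors' deposited table the 18-month difference was -0.12. Cajal-Retzius cell markers, 7 of 8 of which were lower in hetero-KO at 18 months with a median of -0.76, moved in the same comparison, and their part was not tested. Ntn1, the classical attractant, was higher by 0.30 and 0.14, and Ntn4 was a dim probe lower by 0.17 and 0.49.

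Dcc, the receptor through which netrin 1 attracts axons, was represented by a bright probe that the file places at chr7:68417162-68417221 in mm9, whereas RefSeq puts the gene on chromosome 18. That probe had levels of 54.8, 56.2, 61.4 and 67.8 and which transcript it detects was not resolved here. The 5 other Dcc probes all lie on chromosome 18. The brightest of them had levels of 0.316, 0.408, 0.301 and 0.425, with both hetero-KO arrays above both WT arrays. All 5 were higher in hetero-KO at 4 months, by 0.08 to 0.46, and at 18 months, by 0.29 to 0.58, but tested one by one none passed (limma, smallest adjusted p = 0.241). Unc5a, a repulsive netrin receptor, was higher by 0.24 and 0.15, or 0.19 ± 0.04 (SE) over both ages (limma adjusted p = 0.299). Unc5d lay near the limit of detection, with levels of 0.0122, 0.00822, 0.0111 and 0.0115, and its 4-month difference of -0.57 shrank to -0.12 with normexp.

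**Figure D3:**
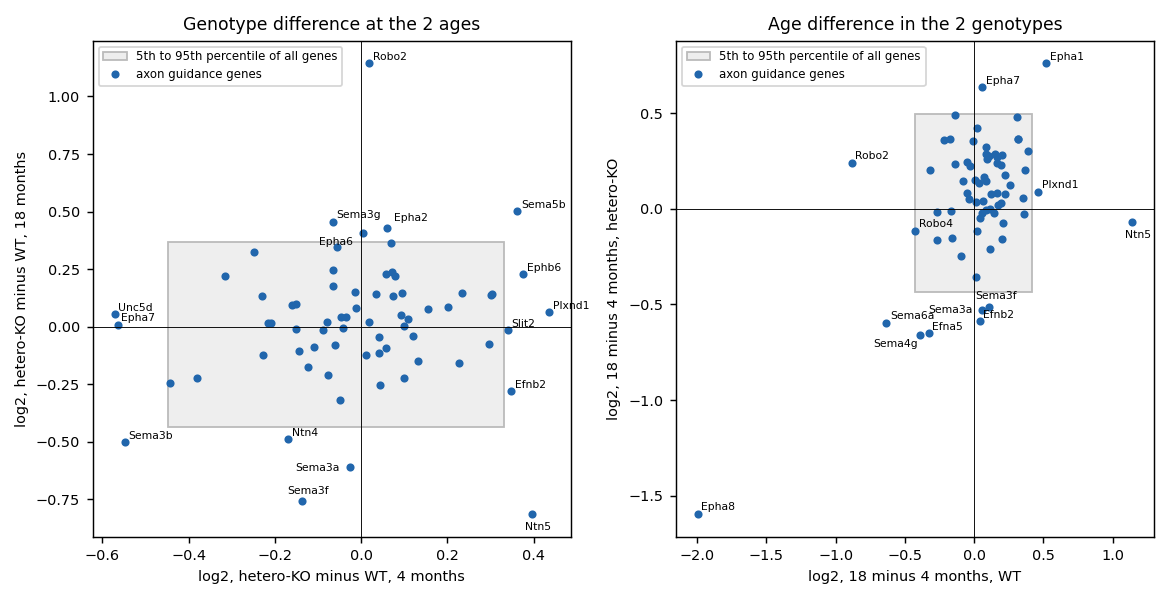
Each axon guidance gene by its genotype difference at 4 and 18 months (left) and by its age difference in WT and hetero-KO (right), log2; the grey box spans the 5th to 95th percentile of all genes on each axis. Outside the box lie 16 of 69 genes, or 23.2%, on the left and 13 of 69, or 18.8%, on the right, beside 15.8% and 15.2% of all genes. Sema3b and Sema5b lie beyond the box limits on both axes with the same sign at both ages, and others pass on 1 axis only or change sign. In the right panel Epha8 lies farthest to the lower left, with Sema6a also beyond the limits on both axes there.

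The second question was how the same genes differed with age in each genotype. In WT, 1 member was 1.5-fold higher at 18 than at 4 months and 3 were lower, beside 2.56% and 2.73% of all genes. In hetero-KO 2 were higher and 5 lower, beside 3.67% and 3.06%. The members' median was 0.07 in WT and 0.08 in hetero-KO, against 0.04 for all genes in each. The sign was the same in both genotypes for 43 of 69 members, or 62.3%, beside 69.1% of all genes. Over both genotypes limma called 2 members higher and 2 lower, where it called 1.11% of all genes higher and 0.568% lower. Before adjustment, 19 members were higher and 8 lower at p below 0.05, that is 27.5% and 11.6% of the 69, beside 16.7% and 6.89% of all genes. Age cannot be told apart from the makeup of sexes of the pools. In the authors' deposited table, 30 of 69 members were 1.5-fold apart with age in WT and 27 of 69 in hetero-KO. These are larger shares than the 18.9% and 17.1% of all genes. Its 18-month values come from no scanner file used here, and which of the sources holds the RNA that the labels describe is not known, so every age difference and every 18-month genotype difference given here holds for the scanner files alone.

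Epha8, a receptor of A ephrins known from the developing midbrain, fell most of the 69. Its levels were 0.725, 0.698, 0.182 and 0.231, with both 18-month arrays far below both 4-month arrays. The difference was -2.0 in WT and -1.60 in hetero-KO, or -1.80 ± 0.11 (SE) over both genotypes (limma adjusted p = 0.022), a 3.47-fold fall on its 1 probe. In the authors' deposited table the differences were 0.29 and 0.087. Sema6a, a transmembrane semaphorin that binds Plxna2 and Plxna4, had levels of 1.18, 1.07, 0.759 and 0.705 and fell by 0.62 ± 0.06 (SE; limma adjusted p = 0.038). Of its 4 probes 3 were lower with age in both genotypes, by 0.58 to 1.22, and the dimmest was higher in WT by 0.31 and lower in hetero-KO by 0.98. Markers of thalamus and habenula were lower with age in the same arrays, 13 of 15 in WT and 14 of 15 in hetero-KO, with medians of -1.54 and -1.18, and their part in the fall of Epha8 and Sema6a was not tested.

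Slit1 and Unc5a, a repellent and a repulsive receptor, rose. Slit1 had levels of 8.02, 8.56, 9.98 and 11.0, so that both 18-month arrays exceeded both 4-month arrays, and the rise was 0.34 ± 0.04 (SE; limma adjusted p = 0.048). Unc5a had levels of 13.0, 15.3, 17.1 and 18.9 and rose by 0.34 ± 0.04 (SE; limma adjusted p = 0.049). Each has 1 probe, and each call ended with quantile normalization, where the rises were 0.24 and 0.22 at adjusted p = 0.105 and 0.118. All 4 calls, Epha8 and Sema6a included, also ended when the variance trend was left out (adjusted p = 0.320 for each), when the filter on dim probes was left out (0.145 to 0.148), and when a gene's probes were averaged (0.054 to 0.118), and without genotype in the model the Epha8 call held (0.0173) and the other 3 ended (0.0628 to 0.166).

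**Figure D4:**
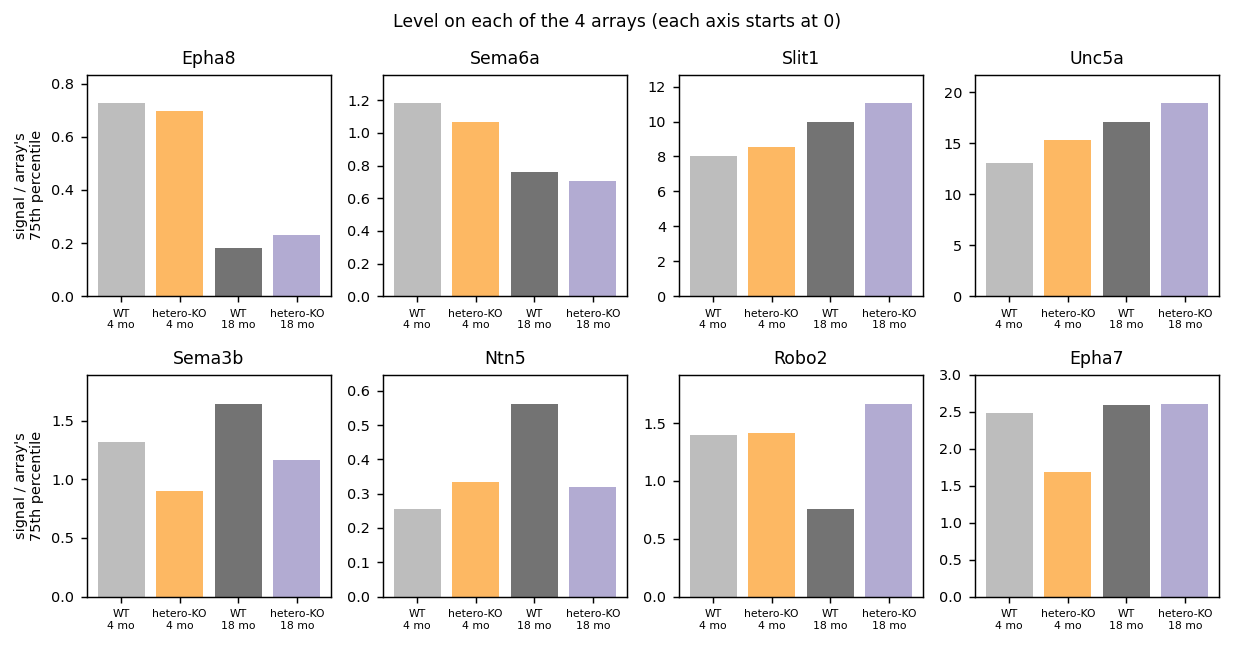
Level on each of the 4 arrays for 8 members, as signal over the array's 75th percentile, with 1 bar per array and every axis starting at 0; levels of different genes are not comparable. Epha8 and Sema6a are low on both 18-month arrays and Slit1 and Unc5a high on both. Sema3b is lower in hetero-KO at each age, while Robo2 and Ntn5 differ on the WT array of 18 months and Epha7 on the hetero-KO array of 4 months.

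Other members did not pass the test. Sema6c had levels of 1.5, 1.49, 1.86 and 2.07 and was higher with age by 0.39 ± 0.06 (SE; limma adjusted p = 0.059), and Sema3b by 0.34 ± 0.05 (SE; adjusted p = 0.058). Sema4g was lower by 0.52 ± 0.09 (SE; adjusted p = 0.066) and Efna5 by 0.49 ± 0.09 (SE; adjusted p = 0.074). Efna5, a ligand that sorts axons by graded repulsion, had levels of 0.814, 0.872, 0.648 and 0.556, and its second probe also had both 18-month arrays lowest. Its dimmest probe differed with age by 0.01 in WT and -0.17 in hetero-KO. Epha1 was a dim probe, with levels of 0.0352, 0.0336, 0.0504 and 0.0569, that was higher on both 18-month arrays by 0.64 ± 0.15 (SE; limma adjusted p = 0.098). Epha7 was higher with age by 0.63 in hetero-KO and by 0.06 in WT, and Efnb2 differed by -0.59 and 0.04, which are the levels given above read along the other axis. Ntn5 differed by 1.14 in WT and -0.07 in hetero-KO, or 0.54 ± 0.29 (SE) over both genotypes (limma adjusted p = 0.340). In WT, Plxnd1, Ephb1 and Sema4b were higher by 0.46, 0.37 and 0.36, and Robo4, a Robo receptor of endothelial cells, was at -0.43, where 11 of 14 endothelial markers were lower too, with a median of -0.21 and a part that was not tested. In hetero-KO, Unc5d, Sema6c and Epha6 were higher by 0.49, 0.48 and 0.42.

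By family, 8 of 9 EphA receptors were higher with age over both genotypes, with a median of 0.21, beside 16927 of 29065 genes, and Epha8 was the exception. Within a genotype, 58.4% of all genes were higher with age in WT and 59.4% in hetero-KO. For the EphA receptors the counts were 6 of 9 in WT, or 5 of 9 after quantile normalization, and 8 of 9 in hetero-KO. By their brightest probes, all 3 Slits were higher over both genotypes, with a median of 0.08, and 3 of 3 in WT and 2 of 3 in hetero-KO. Slit2 was among them at only 0.02 ± 0.10 (SE), and of its 3 measured probes 2 were lower in WT and 3 in hetero-KO. The EphB receptors were higher in 4 of 5 cases and in 5 of 5 under the other scalings, with a median of 0.15. Class 4 to 7 semaphorins were higher in 10 of 13 cases, or 8 of 13 after quantile normalization, and the Robo receptors were divided, 2 of 4 higher. The same direction in related genes is not independent support, since they share the 4 arrays. Microglial markers, 12 of 12 of which were higher with age in each genotype, moved in the same comparison, and their part was not tested.

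Probes of 1 gene did not always agree. Of 42 members with 2 or more measured probes, 20 had all probes of 1 sign in the genotype comparison at 4 months and 22 at 18 months, 16 in the WT age comparison and 18 in the hetero-KO one. A difference of at least 1.5-fold on 1 probe met the opposite sign on another in Nrp1, Slit2, Robo2 and Sema6a, as given above, and in the age comparisons also in Ephb2, Sema3a, Sema3d, Sema4f and Sema4g. In hetero-KO the dim second probe of Sema4f differed with age by -0.68 where the brighter one gave 0.28, and the dim probe of Sema3d by 0.64 where the brighter one gave -0.02. In WT the second Ephb2 probe, with levels of 0.277, 0.252, 0.159 and 0.249, differed by -0.80 beside 0.09 on the brighter probe.

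A further list of 83 genes of the same pathways, with co-receptors, other cues and cytoplasmic effectors, gave 82 measured genes, and Draxin was not well above background on any array. In the genotype comparisons 0 of 82 were 1.5-fold higher at either age, 1 was lower at 4 months and 2 at 18 months, with medians of 0.02 and -0.01, where 1.82% and 2.11% of all genes were higher and 2.71% and 2.64% lower. Vangl2, a planar polarity protein of growth cones, had levels of 1.03, 0.673, 1.0 and 0.614, with both hetero-KO arrays below both WT arrays. It was lower by 0.62 and 0.71, or 0.66 over both ages, and did not pass (limma adjusted p = 0.135). Met, the receptor of hepatocyte growth factor, had levels of 0.0799, 0.0993, 0.169 and 0.0668 and differed by 0.31 at 4 months and -1.33 at 18 months, with WT at 18 months the highest array as for Ntn5. The other outermost values at 4 months were -0.31 for both Tiam1 and Mical1, 0.40 for Ngef and 0.30 for Dpysl3. At 18 months they were -0.35 for Rnd1, 0.34 for Gpc1, 0.31 for Cntn2 and 0.26 for Fes.

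With age, limma called 4 of the 82 lower and none higher, beside 0.568% and 1.11% of all genes. Cntn4, a neuronal cell adhesion molecule, fell by 0.86 ± 0.08 (SE; limma adjusted p = 0.035) and Vav3, an effector of Eph receptors, by 0.77 ± 0.07 (SE; adjusted p = 0.035). Ntng1, a membrane-anchored netrin relative of thalamic axons, had levels of 7.85, 6.76, 5.33 and 4.65 and fell by 0.55 ± 0.04 (SE; adjusted p = 0.032). Srgap1, an effector of Robo receptors, fell by 0.42 ± 0.05 (SE; adjusted p = 0.049). All 4 were lower on both 18-month arrays than on both 4-month arrays. Of the markers of thalamus and habenula, 13 of 15 were lower with age in WT and 14 of 15 in hetero-KO, and the part of that tissue was not tested. These 4 calls, too, ended without the variance trend (adjusted p = 0.320 for each), without the filter on dim probes (0.145 to 0.148) and with averaged probes (0.0786 to 0.166), and that of Srgap1 also with quantile normalization (0.0729). Without genotype in the model Cntn4 kept its call (0.0341) and the other 3 lost theirs (0.0503 to 0.0898). In WT 1 of the 82 was 1.5-fold higher with age, Met by 1.08, followed by Ngef at 0.37 and Sdc3 at 0.25, and 2 were lower, Cntn4 and Vav3, at -0.95 and -0.85, beside 2.56% and 2.73% of all genes. In hetero-KO none was higher and 4 were lower, beside 3.67% and 3.06%, among them Rnd1, a small GTPase bound by plexins, and Dpysl5, a collapsin response mediator, both at -0.81. The highest values there were 0.43 for Gpc1, 0.35 for Fes and 0.31 for Srgap2.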

How the data were processed

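Spot intensities, linear and already background-corrected, were made before deposit by version 11.5.1.1 of Agilent's Feature Extraction software (protocol GE1_1105_Oct12), per the file headers, which place probes on build mm9. The authors' deposited table gives a linear ratio: the columns for 4 months are the scanner signal scaled to the 75th percentile, and those for 18 months were found in no scanner file used here (correlation of log2 values at most 0.982). Their column medians were 0.107, 0.103, 0.0998 and 0.0987, with no log and no centring, and whether those columns or the 18-month scanner files hold the labelled RNA is unknown; the table served as an alternative only.

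Log2 of the processed signal was centred on the 75th percentile, taken on each array from its 59305 spots that are no controls, and spots marked as outliers were left out. Spots of a probe were averaged, a probe was measured on an array if 50% or more of its spots carried the scanner's well-above-background mark, and a gene took its probe with the highest mean level. limma 3.58.1 (R 4.3.3) fitted genotype and age additively with eBayes and a variance trend, for genes measured on at least 2 arrays, after the script was tested on simulated data. Pairs of arrays were called at 1.5-fold. All 4 arrays lie on 1 slide with 1 scan time. Symbols are those of the files; 117 of 170 member probes matched a RefSeq accession, and no symbol changed. Of the 71 symbols, 69 passed the filter on dim probes.

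Alternatives were normexp with an offset of 50 (on mean and background signals), quantile normalization, no filter or a filter on all 4 arrays, the mean of a gene's probes, no trend, 1 factor alone, a 2-fold threshold and the authors' table; probes on the RefSeq chromosome alone and each probe by itself were added after seeing the data. Named are, in each comparison, the 6 members with the largest differences in each direction, every member past the threshold and members with probes of opposite sign, and the 3 outermost pathway genes. The members and lists were chosen with earlier results of these data known.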

Additional observations from a re-analysis of the deposited data

Results flagged for a closer look

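Among the 69 measured members, a difference had opposite signs in the groups compared, each beyond the combined spot error, in 6 cases of 5 genes. How many of all genes meet this rule was not counted, so these cases are a description. Over all genes, 25% exceeded the spot error for genotype at 4 months and 23.8% at 18 months. The sign was the same for 61.8% of all genes in the genotype differences and for 69.1% in the age differences. With 1 array per group the change itself was not tested. The genotype difference of Ntn5 went from 0.40 at 4 months to -0.81 at 18 months, a change of -1.21 on the log2 scale, with both of its probes alike. Efnb2 went from 0.35 to -0.28, a change of -0.63, on its 1 probe. Robo3 went from -0.31 to 0.22, a change of 0.54, which its dimmer probe, at -0.48 and -0.05, did not show as a change of sign. Epha5 went from -0.25 to 0.32, a change of 0.57, and its age difference, read from the same 4 levels, was -0.22 in WT and 0.36 in hetero-KO, the same change of 0.57; of its 5 measured probes, 4 turned sign in the genotype comparison. The age difference of Robo2 was -0.88 in WT and 0.24 in hetero-KO, a change of 1.13 that rests on 1 probe and 1 array, WT at 18 months.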

How the results depend on the processing

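No paired analysis was possible because each group holds 1 array, and no array could be left out for the same reason; the slide as a block was not run because all arrays share 1 slide. The count of 0 members called for genotype held under all 9 alternatives. The 4 members called with age became 2 with quantile normalization, 0 without the filter, 0 with averaged probes, 0 without the trend, 1 without genotype in the model and 2 when each probe was tested by itself, and 6 with normexp. Genes called with age over the whole array numbered 487, of which 66.1% were higher, against 166 and 31.3% with quantile normalization, 1299 and 78.4% with normexp, 770 with genes measured on all 4 arrays, 14 with averaged probes and 0 without the trend or the filter. For genotype 3 genes were called, against 14 with normexp, 10 with genes measured on all 4 arrays and 0 to 3 in the others. Members 1.5-fold apart at 4 months numbered 0, and 1 with averaged probes (Sema4g). At 18 months 4 became 1 with averaged probes, 1 at 2-fold and 1 in the authors' deposited table. With age in WT 4 became 2 at 2-fold and 30 in the authors' deposited table; in hetero-KO 7 became 3 with normexp, 3 with averaged probes, 1 at 2-fold and 27 in the authors' deposited table. Over all genes, normexp left 362 of 1284, 389 of 1311, 491 of 1492 and 724 of 1859 genes at least 1.5-fold apart in the 4 comparisons, and the share of higher ones at 4 months moved from 40.2% to 57.2%, or 56.0% with quantile normalization. Without the filter these counts were 4337, 4487, 4701 and 5269, at 2-fold 381, 314, 452 and 609, and with age 5330 and 4725 in the authors' deposited table. In the authors' deposited table the sign turned at 18 months for Sema3a (0.039) and Sema3f (0.042), with age in WT for Epha8 (0.29) and Robo2 (0.41), and with age in hetero-KO for Efna5 (2.30), Efnb2 (1.0), Epha1 (-0.75), Epha7 (-1.32) and Epha8 (0.087). With averaged probes Robo2 turned to -0.10 for genotype and 0.10 for age. The cause of these changes was not tested. Signal over background limits Unc5d, Efna4, Epha1 and Ntn4, the dimmest members named.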
